A study of Mus musculus with 12 samples.

Results

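Fibroblast growth factor (FGF) signalling was followed in mouse embryonic stem cells (ESCs) through 10 genes. They were chosen by name for their roles in the pathway, with earlier results of these data known. These were the ligand genes *Fgf4*, *Fgf5* and *Fgf15*, the receptor genes *Fgfr1* and *Fgfr2*, the feedback inhibitor genes *Spry2*, *Spry4* and *Dusp6*, and the ETS transcription factor genes *Etv4* and *Etv5*. *Fgf4*, *Fgf15* and *Fgfr2* lie on chromosome 7, and *Fgf5*, *Fgfr1*, *Dusp6*, *Etv4*, *Spry2*, *Etv5* and *Spry4* on chromosomes 5, 8, 10, 11, 14, 16 and 18. They were 10 of 35580 genes with summed values, and all 10 were among the 17424 genes that passed the filter on low counts. mRNA was sequenced from the parental R1 line (WT) and from CIDEA KO cells derived from it, in which CRISPR-Cas9 deleted *Cidea*, a lipid droplet fusion gene. Each genotype was sampled as ESCs in 10% FBS with LIF (0 h) and as spheroids at 24 h and 48 h. For molecular experiments the paper describes seeding on top of a Matrigel coat, with 15% FBS and without LIF. Medium holding Matrigel was added once the cells had attached. There were 2 libraries per genotype and time and 12 in all. The libraries of a group were described as independent samples, but all KO libraries came from 1 clone, so the loss of *Cidea* and other differences of that clone cannot be told apart.

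FGF ligands bind receptor tyrosine kinases together with heparan sulphate, and the receptors pass the signal through adaptors and RAS to the RAF, MEK and ERK kinases. Active ERK raises transcription of ETS factors and of Sprouty and DUSP proteins, which in turn dampen the pathway. In ESCs, FGF4 made by the cells themselves is known to drive exit from the naive state, and *Fgf5* is a classical marker of the post-implantation epiblast.

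Gene totals were 28806336 to 38243660 estimated counts per library. *Cidea* had 20 to 117 counts in the WT libraries and 0 in all 6 KO libraries, which allows up to 3 counts in each. Pluripotency markers summed to between 1977 and 2797 TPM (the share of transcripts in a library, scaled to a fixed total and corrected for transcript length) in every library. Over both genotypes the sums were 2483 to 2670 TPM at 0 h, 2680 to 2797 TPM at 24 h and 1977 to 2211 TPM at 48 h, the lowest of the 3 times. Replicate 1 of the KO group at 24 h stood apart: thinned to the smallest of these totals it held 15185 genes with a count, against 17329 to 19301 in the other libraries.

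The upstream sequences of *Fgf4*, *Fgf5* and *Fgfr2* are shown because *Fgf4* transcripts rose and then fell in the spheroids while those of *Fgf5* and *Fgfr2* ended at their highest counts. RefSeq (GRCm38.p6) gave promoters for 6 of the 10 genes. Each stretch covers the 250 bases before the annotated start, on the strand of the gene. Capitals mark the ETS core CCGGAA, the PEA3 site AGGAAG or the GC box GGGCGG, read on either strand. These are chr7:144861136-144861385 (+), chr5:98253934-98254183 (+) and chr7:130266809-130267058 (-).

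*Fgf4*: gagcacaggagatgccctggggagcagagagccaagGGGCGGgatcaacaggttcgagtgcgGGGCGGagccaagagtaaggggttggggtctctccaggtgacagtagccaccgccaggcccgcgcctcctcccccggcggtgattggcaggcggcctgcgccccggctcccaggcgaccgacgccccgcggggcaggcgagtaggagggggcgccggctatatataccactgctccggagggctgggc

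*Fgf5*: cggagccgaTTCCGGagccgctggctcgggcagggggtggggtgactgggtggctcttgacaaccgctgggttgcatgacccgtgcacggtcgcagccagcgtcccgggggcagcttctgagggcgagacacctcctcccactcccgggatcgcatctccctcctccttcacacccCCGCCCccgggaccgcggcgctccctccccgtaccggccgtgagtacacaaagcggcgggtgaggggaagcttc

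*Fgfr2*: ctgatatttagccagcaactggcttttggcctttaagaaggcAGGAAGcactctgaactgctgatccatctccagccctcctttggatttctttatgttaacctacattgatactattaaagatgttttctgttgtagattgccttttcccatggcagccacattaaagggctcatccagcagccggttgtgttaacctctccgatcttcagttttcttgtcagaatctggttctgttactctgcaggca

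*Fgf4* had 2 GC boxes, starting 214 and 188 bases before the start of transcription. *Fgf5* had 1 ETS core, 241 bases before the start on the opposite strand, and 1 GC box. *Fgfr2* had 1 PEA3 site, 208 bases upstream. Of 32851 promoters of the same length, 3952 held the ETS core, 9686 (29.5%) the PEA3 site and 10756 (32.7%) the GC box, and no motif overlapped another in the sequences shown. The octamer ATGCAAAT (1.60% of promoters) and the AP-1 site TGACTCA (4.46%) were also searched and had no match in any of the 7 promoters of the 6 genes. The sequences of *Fgf4* and *Fgf5* were 71.2% and 70.8% G or C, and that of *Fgfr2* 44.0%.

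Most of the 10 genes changed over the first 24 h in both genotypes (see the plot of log2 fold changes by interval). In WT cells, 8 of 10 were called between 0 h and 24 h, 5 higher and 3 lower, where 15.0% of all genes tested were called (7.54% higher, 7.47% lower). In KO cells the same comparison called 8 of 10, also 5 higher and 3 lower, against 18.6% of all genes (9.24% higher, 9.33% lower). From 24 h to 48 h, 3 of 10 were called in WT cells (1 higher, 2 lower) against 8.14% of all genes (3.28% higher, 4.86% lower). KO cells had 5 of 10 called over that interval (2 higher, 3 lower) against 9.94% (4.57% higher, 5.37% lower). Between 0 h and 48 h, 7 of 10 were called in each genotype, 4 higher and 3 lower. The share of all genes called in that comparison was 23.6% in WT cells (11.1% higher, 12.5% lower) and 25.0% in KO cells (12.1% higher, 12.8% lower). The median log2 fold change of the 10 genes between 0 h and 48 h was 0.07 in WT and -0.19 in KO cells, and that of all genes 0.02 and 0.01. These are bulk samples, in which fewer cells of a type and less RNA per cell cannot be told apart. The samples at 0 h also differed from the later ones in LIF, serum, Matrigel and the way of harvest. In every comparison with 0 h these cannot be told apart from time. The comparisons of one genotype share their libraries, and their values are given side by side. Because the 10 genes were chosen with earlier results known, their counts against all genes are a description and not a test of the pathway.

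**Figure D1:**
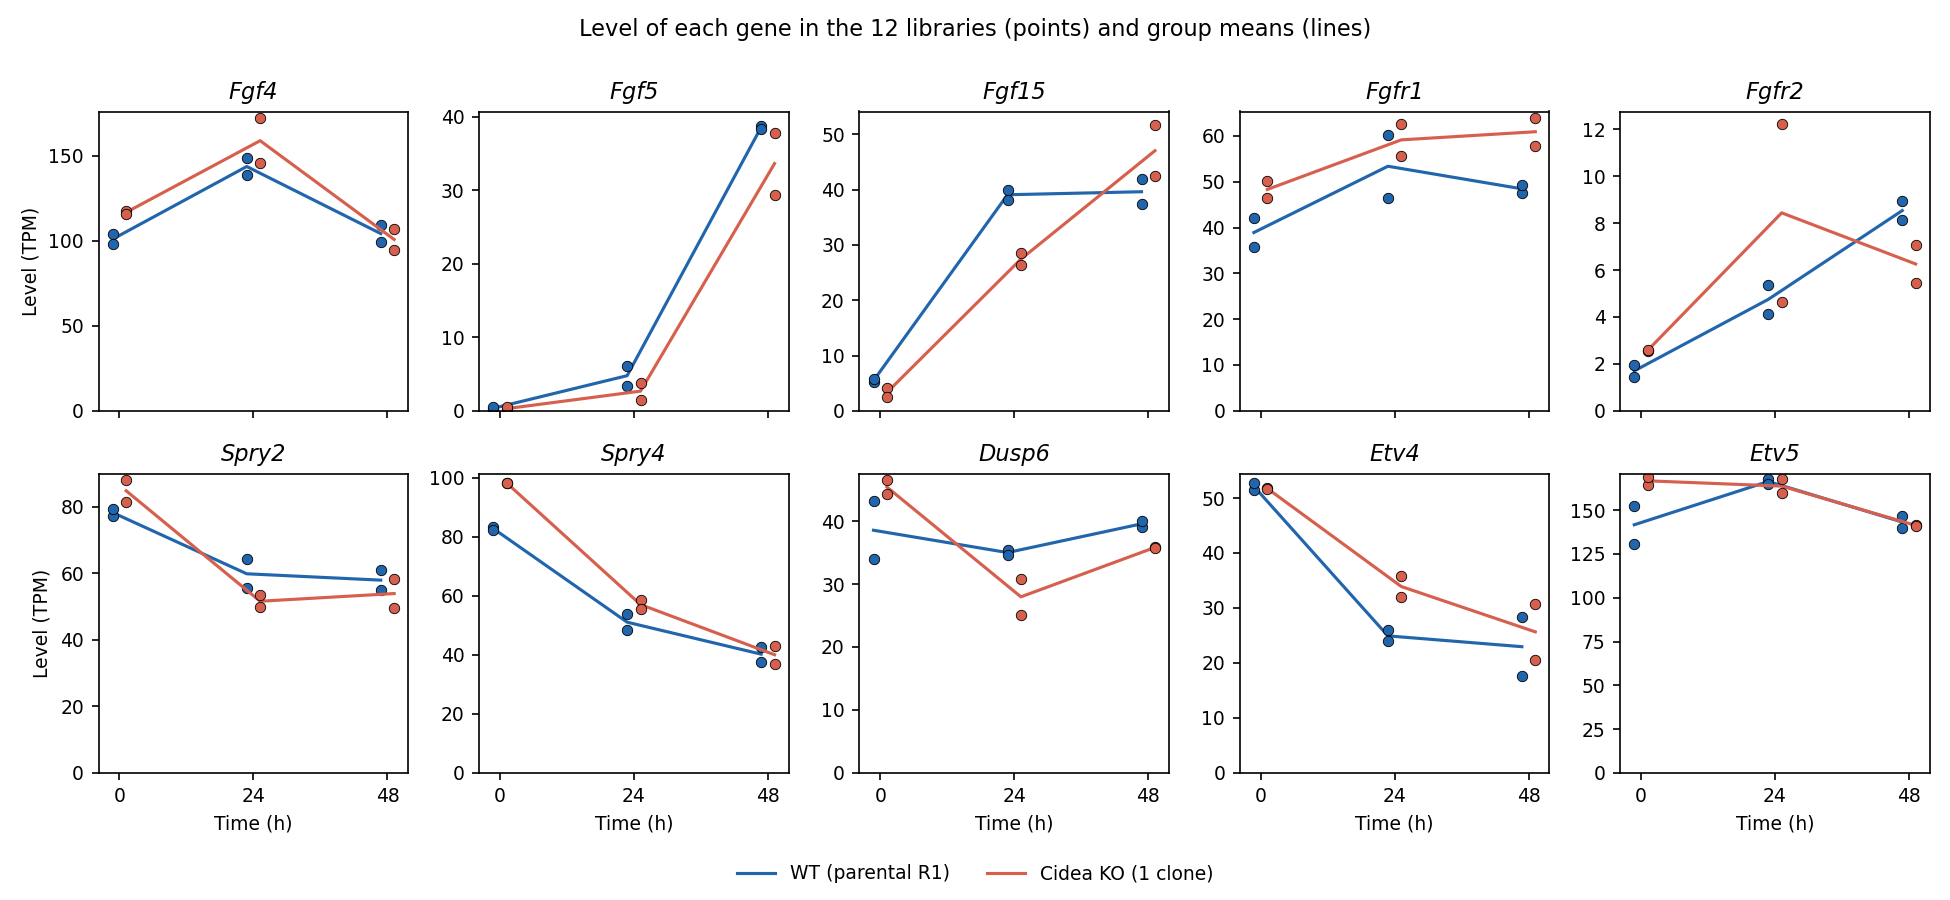
Level (TPM, linear axis from 0) of each gene against time in hours, with points for single libraries and lines for the means of 2 libraries, WT in blue and KO in red. *Fgf5* reached 29.4 to 38.8 TPM at 48 h in all 4 libraries, *Fgf4* was highest at 24 h, and *Spry4* and *Etv4* were lower at 48 h than at 0 h in every library.

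*Fgf4* encodes the main FGF ligand of undifferentiated ESCs. In WT cells its level was 104 and 97.9 TPM at 0 h, 138 and 149 TPM at 24 h, and 109 and 99.2 TPM at 48 h. KO cells had 118 and 116 TPM at 0 h, 146 and 172 TPM at 24 h, and 94.5 and 107 TPM at 48 h. Both libraries at 24 h were above all others of their genotype. The rise to 24 h was 1.37-fold in WT cells (log2 0.45 ± 0.09 (SE), n = 2 against 2, adjusted p = 0.000875) and 1.32-fold in KO cells (log2 0.40 ± 0.09, adjusted p = 0.00224). The fall from 24 h to 48 h was -0.42 ± 0.09 on the log2 scale in WT cells (adjusted p = 0.00334) and -0.60 ± 0.09 in KO cells (adjusted p = 8.02e-05). The difference between 48 h and 0 h was 0.04 ± 0.09 in WT cells and -0.20 ± 0.09 in KO cells (adjusted p = 0.831 and 0.0974). The fall in WT cells lost its call without replicate 2 of the WT groups at 24 h or 48 h (adjusted p = 0.0630 and 0.0536) and in 2 of 3 limma fits on TPM (0.0517 and 0.0738), and the KO difference between 48 h and 0 h gained one without replicate 1 of KO at 24 h or replicate 2 of KO at 48 h (0.0435 and 0.0236).

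*Fgf5*, whose ligand marks the primed epiblast, had the largest change of the 10 genes. In WT cells its level was 0.183 and 0.489 TPM at 0 h, 6.14 and 3.41 TPM at 24 h, and 38.8 and 38.4 TPM at 48 h. In KO cells it was 0.128 and 0.454 TPM at 0 h, 3.82 and 1.53 TPM at 24 h, and 37.8 and 29.4 TPM at 48 h. No library of one time overlapped any of another time within a genotype, and the 4 libraries at 0 h rested on 6.05 to 24.5 estimated counts. The rise from 0 h to 48 h was 6.70 ± 0.47 on the log2 scale in WT cells (104-fold, adjusted p = 6.39e-07) and 6.58 ± 0.47 in KO cells (95.4-fold, adjusted p = 7.26e-07). In WT cells the log2 rise was 3.61 ± 0.46 to 24 h and 3.09 ± 0.36 from there to 48 h (adjusted p = 0.000217 and 0.000234). In KO cells it was 2.45 ± 0.50 and 4.12 ± 0.38 (adjusted p = 0.00506 and 3.06e-05). The size of the rises rested on single libraries at 0 h. Without replicate 1 or 2 of that group the log2 rise to 48 h was 6.15 or 7.59 in WT cells and 5.92 or 7.73 in KO cells. The rise to 24 h was then 3.07 or 4.50 in WT cells and 1.81 or 3.62 in KO cells, and all of these stayed called. The KO rise to 24 h lost its call with only the groups compared (adjusted p = 0.157) and with limma without a filter (0.0704).

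*Fgf15*, the mouse counterpart of human *FGF19*, encodes a ligand of the endocrine group and lies 31.3 kb downstream of *Fgf4* on chromosome 7 (144896531 to 144900953, GRCm38). In WT cells its level was 5.18 and 5.73 TPM at 0 h, 40.0 and 38.2 TPM at 24 h, and 37.4 and 41.9 TPM at 48 h. In KO cells it was 4.11 and 2.50 TPM at 0 h, 26.3 and 28.5 TPM at 24 h, and 42.4 and 51.7 TPM at 48 h. WT libraries at 24 h and 48 h overlapped, whereas the KO libraries at 48 h were above those at 24 h. The log2 rise to 24 h was 2.78 ± 0.17 in WT cells (adjusted p = 1.01e-09) and 3.06 ± 0.18 in KO cells (adjusted p = 4.10e-10). From 24 h to 48 h the log2 difference was 0.02 ± 0.16 in WT cells (adjusted p = 0.982), and KO cells rose by 0.87 ± 0.16 (adjusted p = 0.000917), a call that was lost in the 3 limma fits on TPM (0.0555 to 0.0831).

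Per transcript length, *Fgf4* was the leading ligand in every library (see the plot of summed ligand levels). The 3 ligands summed to 104 to 109 TPM in WT and 119 to 122 TPM in KO cells at 0 h, and *Fgf4* made up 94.0% to 97.5% of the sum in these 4 libraries. At 24 h the sums were 185 and 191 TPM in WT cells and 176 and 202 TPM in KO cells. At 48 h they were 185 and 179 TPM in WT cells and 175 and 188 TPM in KO cells, with *Fgf4* at 54.1% to 58.9%, *Fgf15* at 20.2% to 27.5% and *Fgf5* at 15.6% to 21.7%. These shares describe transcripts and were not tested.

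**Figure D2:**
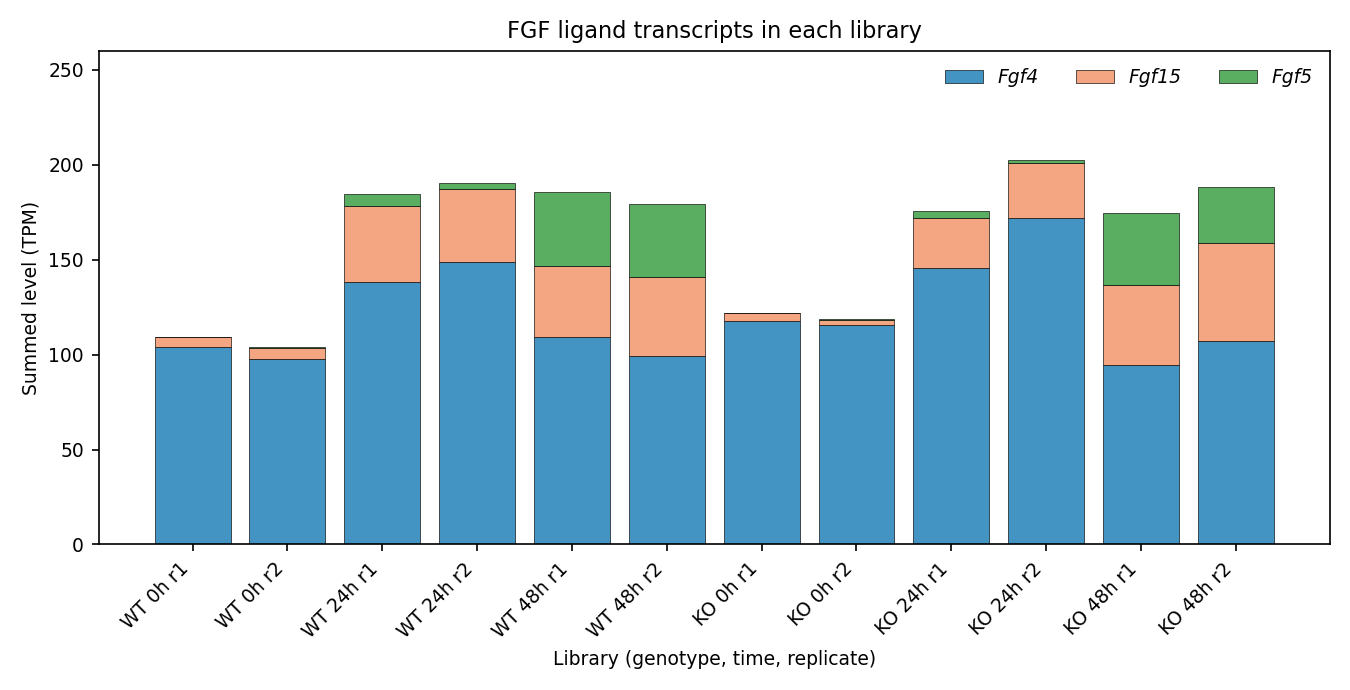
Stacked level (TPM, axis from 0) of *Fgf4* (blue), *Fgf15* (orange) and *Fgf5* (green) in each of the 12 libraries. At 0 h nearly the whole bar is *Fgf4*, and at 48 h *Fgf4* takes 54.1% to 58.9% of it.

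*Fgfr1*, the main FGF receptor of ESCs and the epiblast, had a level of 35.7 and 42.1 TPM at 0 h, 60.2 and 46.5 TPM at 24 h, and 47.6 and 49.3 TPM at 48 h in WT cells. In KO cells it had 50.2 and 46.4 TPM at 0 h, 55.6 and 62.7 TPM at 24 h, and 57.9 and 63.9 TPM at 48 h. The levels at 0 h did not overlap those at 24 h or 48 h within a genotype, and those at 24 h and 48 h overlapped. Its rise from 0 h to 48 h was 1.34-fold in WT (log2 0.42 ± 0.10, adjusted p = 0.00261) and 1.31-fold in KO cells (log2 0.38 ± 0.09, adjusted p = 0.00471). Most of this was seen by 24 h, with a log2 rise of 0.43 ± 0.10 in WT and 0.30 ± 0.09 in KO cells (adjusted p = 0.00367 and 0.0302). The WT rise to 24 h lost its call without replicate 1 at 24 h (adjusted p = 0.0736). In KO cells the rise to 24 h lost it without replicate 2 at 0 h or at 24 h (0.366 and 0.116), and the rise to 48 h without replicate 2 at 0 h (0.133). All 4 of these calls were lost in the 3 limma fits on TPM (adjusted p of at least 0.0878) and with average transcript lengths as offsets (0.0729 to 0.282), where the WT log2 difference between 48 h and 0 h was 0.29 ± 0.13.

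*Fgfr2*, known for high expression in primitive endoderm and trophectoderm, was the lower of the 2 receptors in every library. WT cells had 1.95 and 1.46 TPM at 0 h, 4.14 and 5.36 TPM at 24 h, and 8.12 and 8.96 TPM at 48 h. KO cells had 2.54 and 2.61 TPM at 0 h, 12.2 and 4.66 TPM at 24 h, and 7.08 and 5.44 TPM at 48 h. The 12.2 TPM in replicate 1 at 24 h, the library that stood apart, rested on 236 counts, fewer than the 282 counts of replicate 2. In that library 60.1% of the level was assigned to a transcript annotated as a retained intron, and summed over protein-coding transcripts alone the level was 1.92 TPM against 3.45 TPM in replicate 2. On counts, *Fgfr2* rose by 2.45 ± 0.31 (log2) from 0 h to 48 h in WT cells (5.47-fold, adjusted p = 5.94e-06) and by 2.52 ± 0.32 in KO cells (5.75-fold, adjusted p = 4.51e-06). The rise to 24 h was 1.62 ± 0.31 in WT cells and 1.86 ± 0.31 in KO cells (adjusted p = 0.000862 and 0.000236). From 24 h to 48 h the log2 difference was 0.83 ± 0.29 in WT cells and 0.66 ± 0.29 in KO cells (adjusted p = 0.0931 and 0.179). The WT difference passed in 3 of 22 alternatives. These were only the groups compared (0.83 ± 0.19, adjusted p = 0.00966) and the fits without replicate 1 or 2 of KO at 24 h (0.82 ± 0.26 and 0.83 ± 0.26). On log2(TPM + 1) values tested with limma, the KO rise to 48 h and the rises to 24 h in WT and KO cells lost their call (adjusted p = 0.103, 0.115 and 0.0618), as did the first 2 of these with length offsets (0.0501 and 0.0509). Summed levels of 6 primitive endoderm markers, with *Gata6* at 0 in 1 library, were 6.90 to 11.98 TPM over all 12 libraries. The sum hides opposite moves of its members. Between 0 h and 48 h, 1 of the 6 was called higher in each genotype, while their median log2 change was -0.84 in both. Of all genes, 11.1% in WT and 12.1% in KO cells were called higher. Those of 5 trophectoderm markers, with *Elf5*, *Gata3* or *Hand1* at 0 in some libraries, were 1.23 to 5.40 TPM. Trophectoderm sums were 1.23 to 4.04 TPM at 0 h and 3.53 to 5.40 TPM at 48 h, with 0 of 5 markers called in WT and 1 called higher in KO cells. The part of both marker sets in the *Fgfr2* result was not tested.

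Inhibitors of the Sprouty family block signalling between the receptor and RAF. *Spry2* had 77.2 and 79.4 TPM at 0 h in WT cells, 64.2 and 55.5 TPM at 24 h, and 61.05 and 54.9 TPM at 48 h. KO cells had 81.6 and 88.1 TPM at 0 h, 53.4 and 49.8 TPM at 24 h, and 58.3 and 49.5 TPM at 48 h. All 0 h levels were above all later ones, and the 24 h and 48 h levels overlapped. The log2 change from 0 h to 24 h was -0.44 ± 0.11 in WT and -0.75 ± 0.11 in KO cells (adjusted p = 0.00653 and 3.67e-05). From 0 h to 48 h it was -0.46 ± 0.11 and -0.61 ± 0.11 (adjusted p = 0.00323 and 0.000219). The WT fall to 24 h lost its call without replicate 2 at 0 h or at 24 h (adjusted p = 0.0534 and 0.119), and that to 48 h without replicate 2 at 48 h (0.0538). The former was also lost in the 3 limma fits on TPM (0.0681 to 0.0933).

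*Spry4* fell over both intervals. In WT cells it had 83.2 and 82.4 TPM at 0 h, 53.8 and 48.2 TPM at 24 h, and 42.7 and 37.6 TPM at 48 h. KO cells had 98.3 and 98.1 TPM at 0 h, 58.6 and 55.4 TPM at 24 h, and 43.1 and 36.9 TPM at 48 h. The 3 times did not overlap in either genotype. Between 0 h and 48 h the log2 change was -1.06 ± 0.09 in WT cells (adjusted p = 2.60e-08) and -1.25 ± 0.09 in KO cells (adjusted p = 2.04e-09), which left 0.478 and 0.421 of the starting level. The change to 24 h was -0.75 ± 0.09 and -0.82 ± 0.09 (adjusted p = 5.11e-06 and 1.36e-06). The change from 24 h to 48 h was -0.31 ± 0.09 in WT cells and -0.43 ± 0.09 in KO cells (adjusted p = 0.0355 and 0.00304). The WT change over the later interval lost its call without replicate 1 at 24 h, replicate 1 at 48 h or replicate 2 at 48 h (adjusted p = 0.361, 0.0598 and 0.287), and that of KO cells without replicate 2 at 48 h (0.0631). The WT call was also lost with the size factors of DESeq2 (0.0505), with length offsets (0.110) and in the 3 limma fits on TPM (0.131 to 0.150), and the KO call with only the groups compared (0.0583).

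*Dusp6*, the phosphatase that acts on ERK in the cytoplasm, was called in no comparison. WT cells had 34.0 and 43.1 TPM at 0 h, 35.4 and 34.6 TPM at 24 h, and 39.1 and 40.0 TPM at 48 h. KO cells had 46.5 and 44.3 TPM at 0 h, 30.8 and 25.1 TPM at 24 h, and 35.9 and 35.7 TPM at 48 h. KO libraries at 24 h had the lowest levels of their genotype, and in WT cells the libraries at 0 h spanned those at 24 h and 48 h. The log2 difference between 24 h and 0 h was -0.47 ± 0.17 in KO cells (adjusted p = 0.0683) and -0.27 ± 0.17 in WT cells (adjusted p = 0.359). The KO difference passed the threshold in 8 of 22 alternatives, DESeq2 and the limma fits on TPM among them, and without replicate 1 of KO at 24 h it was -0.78 ± 0.15 (adjusted p = 0.000710). Without that library the KO difference from 24 h to 48 h was 0.57 ± 0.15 (adjusted p = 0.0173), against 0.28 ± 0.17 with it (adjusted p = 0.372).

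*Etv4* and *Etv5* encode ETS factors of the PEA3 group, transcribed in response to ERK. *Etv4* had 51.5 and 52.7 TPM at 0 h, 25.9 and 23.9 TPM at 24 h, and 17.6 and 28.4 TPM at 48 h in WT cells. In KO cells it had 51.9 and 51.6 TPM at 0 h, 35.7 and 32.1 TPM at 24 h, and 30.7 and 20.6 TPM at 48 h. The 4 libraries at 0 h lay between 51.5 and 52.7 TPM, above all later libraries. From 0 h to 48 h the log2 change was -1.32 ± 0.16 in WT cells (adjusted p = 2.55e-06) and -1.003 ± 0.155 in KO cells (adjusted p = 5.25e-05). The change to 24 h was -0.91 ± 0.15 in WT cells and -0.50 ± 0.15 in KO cells (adjusted p = 0.000296 and 0.0266), and that from 24 h to 48 h was -0.40 ± 0.16 and -0.50 ± 0.15 (adjusted p = 0.133 and 0.0428). The KO change to 24 h lost its call without replicate 1 or 2 at 0 h or replicate 2 at 24 h (adjusted p = 0.122, 0.109 and 0.158). Both KO calls were also lost with length offsets (0.0892 and 0.505), in the 3 limma fits on TPM (0.129 to 0.216 and 0.332 to 0.452) and with only the groups compared (0.0683 and 0.159). The later KO change lost its call without replicate 1 at 24 h or either replicate at 48 h (0.329, 0.0620 and 0.286), and the later WT change gained one without replicate 1 or 2 of KO at 24 h (0.0485 and 0.0496).

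*Etv5* had the highest mean TPM of the 10 genes in all 6 groups, but in KO cells at 24 h its lead over *Fgf4* (164 ± 5.39 against 159 ± 18.8 TPM) was smaller than the larger SD, and *Fgf4* was the higher in replicate 2. WT cells had 152 and 131 TPM at 0 h, 168 and 165 TPM at 24 h, and 146 and 140 TPM at 48 h. KO cells had 165 and 169 TPM at 0 h, 160 and 168 TPM at 24 h, and 141 and 141 TPM at 48 h. WT libraries at 0 h spanned those at 48 h, and both KO libraries at 48 h were below the 4 earlier ones. The log2 difference between 48 h and 0 h was -0.01 ± 0.07 in WT cells (adjusted p = 0.975) and -0.19 ± 0.07 in KO cells (adjusted p = 0.0574). DESeq2 called the KO difference (adjusted p = 0.0379), as did the fits without replicate 1 or 2 of WT at 0 h (0.0298 and 0.0379) or of KO at 24 h (0.0319 and 0.0422). The WT difference between 24 h and 0 h was 0.17 ± 0.07 (adjusted p = 0.111), and 0.28 ± 0.08 without replicate 1 at 0 h (0.0250).

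**Figure D3:**
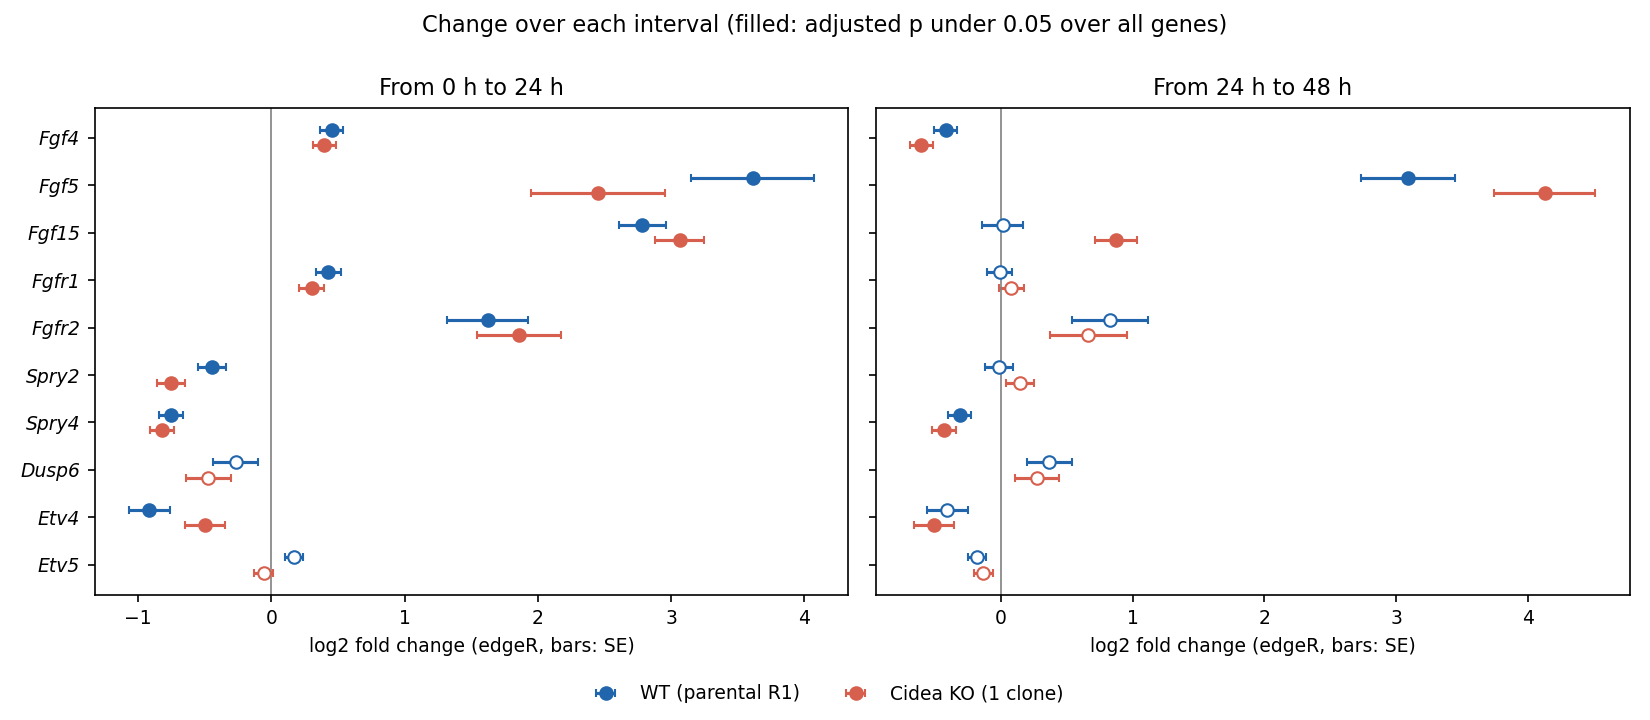
Log2 fold change of each gene from 0 h to 24 h (left) and from 24 h to 48 h (right) in WT (blue) and KO (red) cells, with bars for SE and filled points for an adjusted p under 0.05 over all 17424 genes. *Fgf5* rose in both panels, *Fgf4* rose and then fell, and *Spry4* fell in both.

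Set in order of TPM, the genes changed places over time. In WT cells at 0 h the means ran from *Etv5* (142 ± 15.2 TPM (SD, n = 2)) through *Fgf4* (101 ± 4.37), *Spry4* (82.8 ± 0.574), *Spry2* (78.3 ± 1.56), *Etv4* (52.1 ± 0.819), *Fgfr1* (38.9 ± 4.51), *Dusp6* (38.6 ± 6.46), *Fgf15* (5.45 ± 0.391) and *Fgfr2* (1.70 ± 0.347) to *Fgf5* (0.336 ± 0.216). The gap between *Fgfr1* and *Dusp6* was smaller than the larger of their SDs, and all other gaps between neighbours were larger. Over protein-coding transcripts alone, however, the mean of *Etv4* (27.1 TPM) was below those of *Fgfr1* (29.6 TPM) and *Dusp6* (29.5 TPM). At 48 h *Spry2* (58.0 ± 4.37 TPM) and *Fgfr1* (48.4 ± 1.14 TPM) stood in the third and the fourth place in WT cells. *Spry4* (40.2 ± 3.61 TPM), *Fgf15* (39.6 ± 3.16 TPM) and *Dusp6* (39.6 ± 0.617 TPM) did not differ beyond their SDs. *Fgf5* (38.6 ± 0.295 TPM) was then above *Etv4* (23.0 ± 7.64 TPM) and *Fgfr2* (8.54 ± 0.590 TPM). In KO cells at 48 h *Fgfr1* (60.9 ± 4.25 TPM) was the third, after *Etv5* (141 ± 0.174 TPM) and *Fgf4* (101 ± 8.87 TPM), and *Fgf15* (47.0 ± 6.56 TPM) was above *Spry4* (40.0 ± 4.36 TPM). The places of *Fgfr1* hung on the transcripts summed. Over protein-coding transcripts alone its mean in KO cells at 48 h was 42.6 TPM, below *Spry2* (53.9 TPM) and *Fgf15* (46.2 TPM). In WT cells at 48 h it was 33.8 TPM, also below *Spry4* (40.2 TPM), *Fgf5* (38.6 TPM) and *Fgf15* (37.2 TPM).

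Whether the loss of *Cidea* went with another level of these genes was asked at each time. At 0 h, 1 of 10 genes was called, *Fgf15*, which was lower in KO cells, where 1.26% of all genes were called and 0.987% were called lower. Its KO libraries at 0 h (4.11 and 2.50 TPM) were both below the WT libraries (5.18 and 5.73 TPM). The log2 difference was -0.83 ± 0.19 (adjusted p = 0.0304), which left 0.562 of the WT level. This call rested on 126 and 82 counts in the KO libraries and was lost in 8 of 22 alternatives, among them the fits without replicate 1 or 2 of WT (adjusted p = 0.0846 and 0.195) or replicate 2 of KO (log2 -0.56 ± 0.21, adjusted p = 0.615). The log2 difference was -0.55 ± 0.16 at 24 h (adjusted p = 0.109) and 0.31 ± 0.16 at 48 h (adjusted p = 0.694).

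No gene of the 10 was called between the genotypes by edgeR at 24 h, where 1.46% of all genes were, or at 48 h, where 0.671% were. At 24 h the unadjusted p in edgeR was under 0.05 for 5 of 10, and for 2177 of all 17424 genes tested. DESeq2 called 1 (*Fgf5*) and limma on TPM 0. At 48 h the unadjusted p in edgeR was under 0.05 for 2, and for 1349 of all 17424 genes, and both other tools called 0. *Fgf5* at 24 h had 3.82 and 1.53 TPM in KO against 6.14 and 3.41 TPM in WT libraries, which overlapped on the TPM scale. On counts its KO libraries (114 and 63.1) were below the WT libraries (269 and 197), with a log2 difference of -1.38 ± 0.37 (adjusted p = 0.127). Without replicate 1 of KO at 24 h it was -1.87 ± 0.41 (adjusted p = 0.0513), with DESeq2 -1.38 ± 0.33 (0.00276), and without either replicate of KO at 0 h -1.38 ± 0.30 (0.0402 and 0.0396). The log2 difference of *Etv4* at 24 h was 0.44 ± 0.15 in the full fit (adjusted p = 0.200). Leaving out replicate 2 of KO at 24 h keeps only the library that stood apart. *Etv4* then had 0.62 ± 0.16 and *Fgf15* -0.56 ± 0.18, against 0.25 ± 0.16 and -0.54 ± 0.18 without replicate 1. *Fgfr1* had log2 differences of 0.33 ± 0.10, 0.20 ± 0.09 and 0.29 ± 0.09 at 0, 24 and 48 h (adjusted p = 0.129, 0.392 and 0.276), and at 0 h it passed without replicate 1 or 2 of KO at 24 h (0.0356 and 0.0458).

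**Figure D4:**
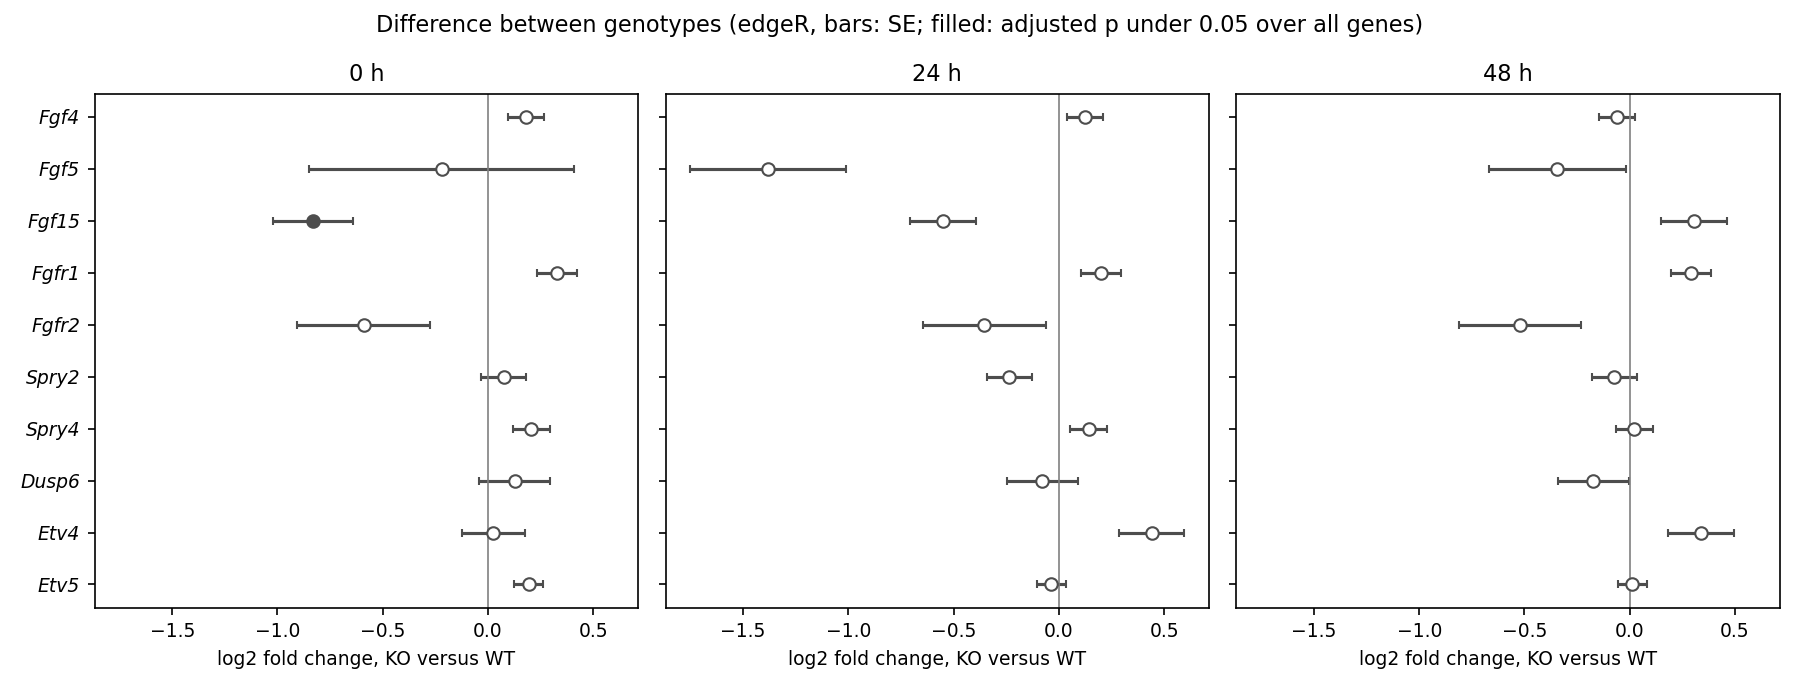
Log2 fold change of KO against WT cells at 0, 24 and 48 h for each gene, with bars for SE and a filled point for an adjusted p under 0.05 over all genes. The filled point is *Fgf15* at 0 h (-0.83), and *Fgf5* at 24 h lies farthest from 0 (-1.38).

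The change over time was also compared between the genotypes. No gene of the 10 was called for a different change from 0 h to 24 h, from 24 h to 48 h or from 0 h to 48 h, and 0.0115%, 0.0230% and 0.0402% of all genes were. By edgeR 1 of 10 had an unadjusted p under 0.05 in each, as had 1029, 894 and 1002 of all 17424 genes. DESeq2 and limma called 0. *Fgf15* gained 1.14 ± 0.25 more on the log2 scale from 0 h to 48 h in KO than in WT cells (adjusted p = 0.145). It passed without replicate 1 of KO at 0 h (1.46 ± 0.27, adjusted p = 0.0397) and without replicate 1 or 2 of KO at 24 h (0.0291 and 0.0320). From 24 h to 48 h the difference in change was 0.86 ± 0.22 (adjusted p = 0.653). It was 0.84 ± 0.23 without replicate 1 of KO at 24 h. Without replicate 2, which keeps only the library that stood apart, it was 0.86 ± 0.23. For *Fgf5* it was -1.16 ± 0.74 from 0 h to 24 h and 1.04 ± 0.49 from 24 h to 48 h (adjusted p = 0.910 and 0.968).

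Of 85 other genes of the pathway, 79 were tested, and they are described by list. Their counts between 0 h and 48 h stand against 23.6% of all genes called in WT cells (11.1% higher, 12.5% lower) and 25.0% in KO cells (12.1% higher, 12.8% lower). Among 10 tested genes of 15 other FGF ligands, 1 rose in WT cells and 1 fell in KO cells between 0 h and 48 h (median log2 -0.44 and -0.39), a smaller share than that of all genes. *Fgf8*, a ligand of the gastrulating embryo, rose in WT cells from 2 and 3 counts to between 59 and 84 (adjusted p = 0.0170), and in KO cells had 3 to 6 counts and then 38 to 41 (adjusted p = 0.108). *Fgf1* fell in KO cells (log2 -1.46, adjusted p = 0.0117) and had a log2 difference of -0.91 in WT cells (adjusted p = 0.114). Of 3 tested intracellular FGF homologous factors (median -0.02 and 0.46), *Fgf14* was called in KO cells, from 0 counts in both libraries to 16 and 33 counts, at least 7.49-fold higher against a floor of 3 counts per library. Of 8 other receptors and co-receptors (median -0.57 and -0.25) 1 rose in KO cells, *Fgfrl1*, a receptor without a kinase domain (log2 0.98, adjusted p = 0.0271), which had 0.79 in WT cells (adjusted p = 0.0800).

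Heparan sulphate genes, whose products hold FGFs at the receptor, had 2 higher and 2 lower of 13 in WT cells and 5 higher and 3 lower in KO cells (median 0.12 and 0.14), where 23.6% and 25.0% of all genes were called, and the WT count is near that share. *Hspg2*, the perlecan core protein of basement membranes, fell by 1.82 in WT and 2.09 in KO cells on the log2 scale (adjusted p = 0.000932 and 0.0004). The syndecan gene *Sdc1* rose by 0.77 and 1.22 (adjusted p = 0.0019 and 1.39e-05), and the glypican gene *Gpc3* by 0.65 and 1.03 (0.00165 and 1.18e-05). *Sdc4* rose in KO cells (0.85, adjusted p = 7.78e-05) and had 0.37 in WT cells (adjusted p = 0.057). Of 21 adaptors and kinases of the ERK cascade, 5 were higher and 1 lower in WT cells and 4 higher and 2 lower in KO cells (median 0.03 and -0.00048), which is near the share of all genes in both. *Hras* (0.50 in WT and 0.47 in KO cells) and *Braf* (0.69 and 0.59) rose and the scaffold gene *Ksr1* (-0.72 and -0.62) fell in both genotypes, on the log2 scale.

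Other inhibitors of the pathway had 5 of 14 higher and 1 lower in each genotype, with medians of 0.41 in WT and 0.40 in KO cells, against 11.1% and 12.1% of all genes higher and 12.5% and 12.8% lower. The phosphatase gene *Dusp4*, which acts on nuclear ERK, rose by 1.46 and 1.27 on the log2 scale and *Dusp9*, whose product acts on ERK in the cytoplasm, by 1.21 and 1.53. *Dusp9* was highest at 24 h, with 191 ± 0.110 TPM in WT and 247 ± 20.1 TPM in KO cells against 55.9 ± 6.59 and 55.7 ± 5.51 TPM at 0 h (SD, n = 2). *Spred3* (1.13 and 1.29) and *Errfi1* (1.05 and 0.98), an inhibitor of EGF receptors, also rose in both. Of 10 other ERK-responsive genes, 2 were higher and 3 lower in WT cells and 1 higher and 3 lower in KO cells (median -0.64 and -0.81), against 23.6% and 25.0% of all genes called. The immediate early genes *Egr1* (-3.91 and -4.59), *Junb* (-2.27 and -2.67) and *Ier2* (-0.82 and -0.96) fell in both, and *Egr1* had 2368 to 3138 counts at 0 h, 1 to 75 at 24 h and 104 to 208 at 48 h. *Fosl1* was called in WT cells, from 0 and 7 counts to between 77 and 89, and in KO cells had 24 to 28 and then 41 to 53 counts.

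Between the genotypes, 1 of these 79 genes was called at 24 h and 1 at 48 h, where 1.46% and 0.671% of all genes were called, so the counts are near the background. *Il17rd*, an inhibitor of FGF receptors, was lower in KO cells at 24 h (log2 -0.50, adjusted p = 0.0361) and *Ccnd1*, the cyclin D1 gene, was higher at 48 h (0.44, adjusted p = 0.00951). *Il17rd* and *Ccnd1* were named after their values were seen, and their calls rested on single libraries. That of *Il17rd* was lost without replicate 1 or 2 of WT or replicate 1 of KO at 24 h (adjusted p = 0.409, 0.102 and 0.178), and that of *Ccnd1* without replicate 1 of WT or replicate 2 of KO at 48 h (0.213 and 0.131).

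**Figure D5:**
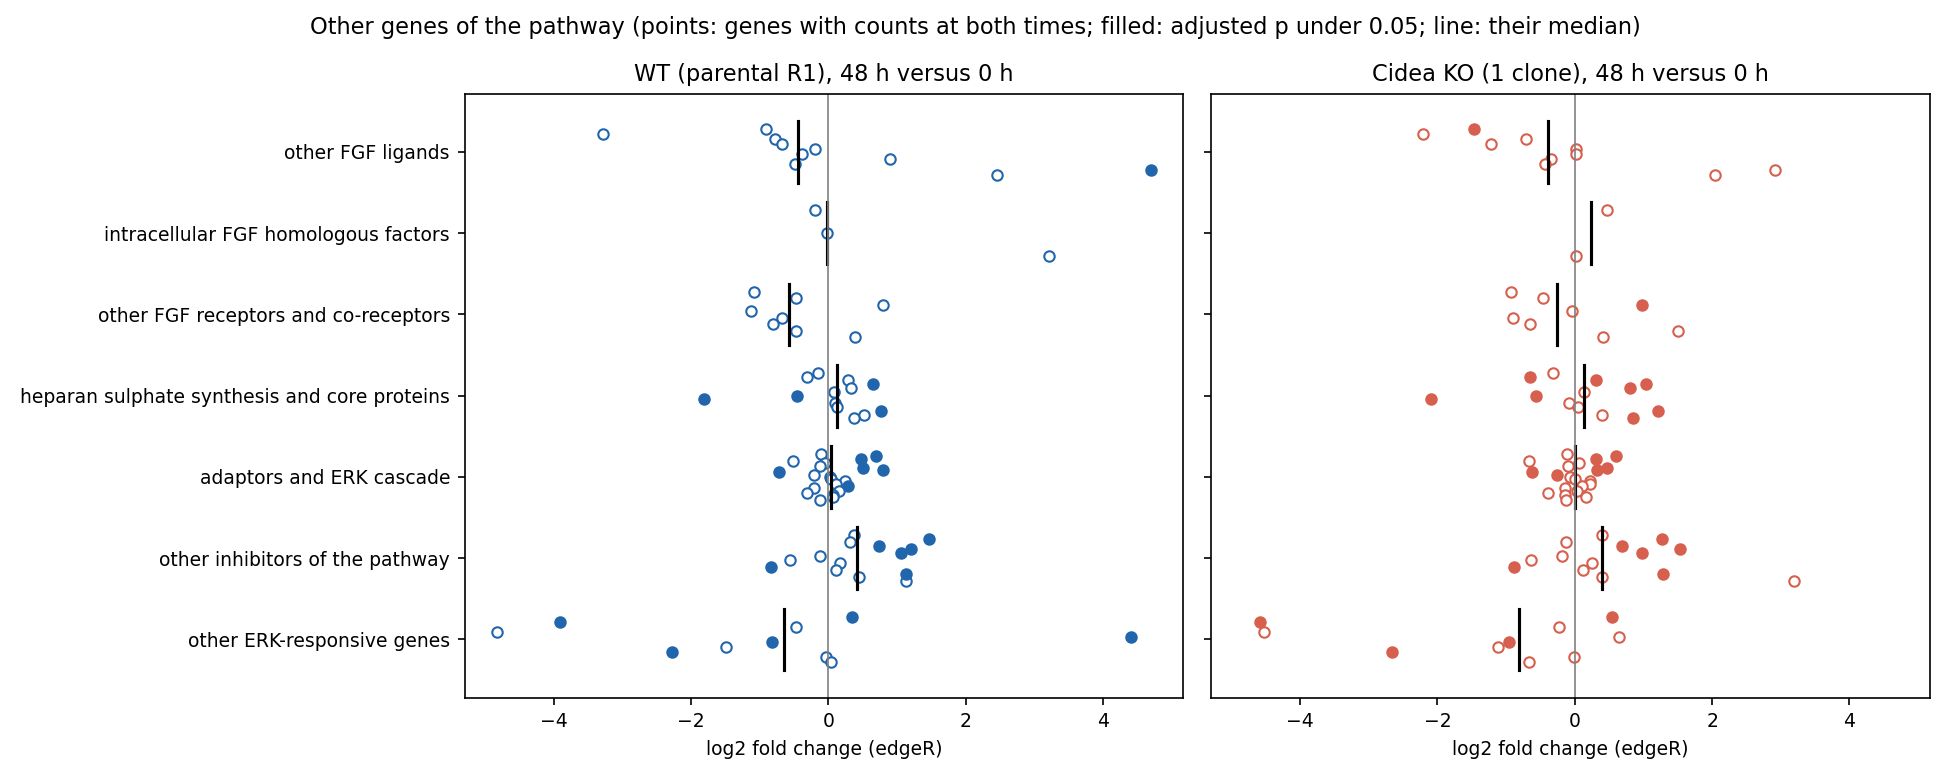
Log2 fold change between 0 h and 48 h of the tested genes in 7 lists of the pathway, in WT (left) and KO (right) cells, with filled points for an adjusted p under 0.05 and a line at the median of each list. *Fgf14* has no count in KO cells at 0 h and is left out of the right panel, also from the median line of its list there. Other inhibitors lie mostly above 0, and other ERK-responsive genes mostly below.

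Naive and primed markers also changed over these times. Summed over 5 naive genes the levels were 1291 to 1310 TPM in WT and 1582 to 1653 TPM in KO cells at 0 h. They were 695 to 724 TPM in WT and 838 to 886 TPM in KO cells at 24 h, and 256 to 304 TPM at 48 h in both. Over 3 primed genes (*Otx2*, *Pou3f1* and *Dnmt3b*) they were 85.0 to 85.1 TPM in WT and 58.5 to 63.5 TPM in KO cells at 0 h, 363 to 373 TPM and 289 to 310 TPM at 24 h, and 630 to 658 TPM at 48 h in both. Between the genotypes, 2 of 5 naive genes were called higher in KO cells at 0 h and 2 at 24 h. Of the 3 primed genes, 1 was called lower in KO cells at 0 h and 2 at 24 h. At these times 1.26% and 1.46% of all genes were called. At 48 h neither list had a call between the genotypes. Mesendoderm markers, of which *Gsc*, *Mesp1* and *Mixl1* were at 0 in some libraries, summed to 4.84 to 6.67 TPM at 0 h and 11.3 to 13.6 TPM at 48 h. Neuroectoderm markers, with *Neurog2* at 0 in some libraries, went from 135 to 156 TPM to between 53.9 and 69.2 TPM, and fibroblast markers, with *Col1a2*, *Col3a1*, *Dcn* and *Postn* at 0 in some libraries, were 6.88 to 24.8 TPM in all. The part of these markers in the results above was not tested.

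For the 7 genes called between 0 h and 48 h in both genotypes, the nearest patterns were sought among 9761 genes with an average log2 CPM (counts scaled to library size) of at least 3, by the root mean square difference of log2 CPM centred on each gene's mean over the 12 libraries. Nearest to *Fgf15* were the epithelial transcription factor gene *Grhl2* (0.25) and *Sall2* (0.38), and nearest to *Fgfr2* were *Foxi3* (0.26) and *Ptpn13* (0.29). Nearest to *Fgf5* were *Sema6a* (0.82) and *Car4* (0.85), the largest of these distances, which are not scaled to the size of a gene's change. From 0 h to 48 h *Sema6a* rose by 6.63 in WT and 6.90 in KO cells on the log2 scale. *Car4* rose by 6.43 and 6.60, and *Fgf5* by 6.70 and 6.58. *Spry4* was nearest to *Csnk1e* (0.11) and *Ctsb* (0.11), *Spry2* to *Scd2* (0.09) and *Wbp2* (0.09), *Etv4* to *Trp53i11* (0.15) and *Osbpl10* (0.16), and *Fgfr1* to *Polg* (0.10) and *Zfp281* (0.11). The measure is a description of these 12 libraries.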

How the data were processed

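mRNA libraries (TruSeq Stranded mRNA, paired reads on an Illumina HiSeq) were checked with FastQC, trimmed with Trimmomatic 0.33 and quantified with kallisto 0.43.1 by the authors; the labels name mm10, and the transcript set is not given in the sources used here. The deposited tables give, for 115270 transcripts, estimated counts, TPM and the effective length. Reads of genes with close paralogs are divided by an estimate. Transcripts were matched to GENCODE M21 (113580 matched; the others held 0.659% to 0.709% of counts and were left out), and counts and TPM were summed over genes. Count sums were rounded and tested by robust quasi-likelihood in edgeR 4.0.16 under R 4.3.3, after filterByExpr and TMM scaling, with 1 mean per group over 12 libraries. Calls were made at an adjusted p under 0.05 (Benjamini-Hochberg, 17424 genes). P-values measure only the spread between these samples. In simulated data for WT 48 h versus 0 h (16839 genes), 66.0% of genes changed by 1 and 83.0% of those changed by 2 on the log2 scale were recovered. The changes were placed only in genes above a floor on the mean count, with a spread taken from the trend over all genes. These shares therefore do not cover genes with few counts.

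A gene with 0 counts could still hold up to 3, equal to between 0.0779 and 0.103 CPM depending on the depth of the library, by counting error alone. Replicates differed by more than sampling noise (chi-square per degree of freedom, 11.0 to 32.4). Genes and lists were chosen with earlier results of these data known. From each pathway list, at most 4 genes called between 0 h and 48 h or between genotypes, those with the largest change, were named, and the 2 tested genes with the closest pattern to each gene called at 48 h versus 0 h in both genotypes. One listed gene is not reported here. The 22 alternatives were DESeq2 1.42.0, other size factors, other filters, length offsets, limma 3.58.1 on TPM, a replicate block, only the groups compared, and each library left out.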

Additional observations from a re-analysis of the deposited data

How the results depend on the processing

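None of the 39 called changes of the 10 genes reversed in any of the 22 alternatives. Of 852 values under them, 771 kept their call and 81 lost it, and 22 of the 39 kept it throughout. Under the filter of 10 counts in every library *Fgf5* could not be fitted. With limma on log2(TPM + 1), 5 of 10 were called in WT 24 h versus 0 h and 3 in KO 48 h versus 24 h; with a pseudocount of 0.1 these were also 5 and 3, and WT 48 h versus 24 h had 1. Without the filter limma called 5 in WT and 5 in KO at 24 h versus 0 h, and 1 in WT and 3 in KO at 48 h versus 24 h. With only the groups compared, KO cells had 5 called at 24 h versus 0 h and 3 at 48 h versus 24 h. Between the genotypes at 0 h, 0 were called with length offsets, in all 3 limma fits and with only the groups compared. At 24 h DESeq2 called 1 and edgeR without the filter 2, and without the filter the genotype by time tests called 1 for 24 to 48 h and 1 for 0 to 48 h.

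Leaving out 1 library at a time, the calls ranged in WT cells from 7 to 9 (24 h versus 0 h), 1 to 5 (48 h versus 24 h) and 6 to 7 (48 h versus 0 h), and in KO cells from 6 to 9, 3 to 5 and 6 to 9. Between the genotypes the range was 0 to 2 at 0 h, 0 to 2 at 24 h and 0 to 0 at 48 h, and for genotype by time 0 to 0, 0 to 1 and 0 to 1 (0 to 24 h, 24 to 48 h, 0 to 48 h). The lone library of a group is then assumed to vary like the others. The cause of these shifts was not tested. The labels repeat the replicate numbers, but same-numbered libraries correlated at 0.0033, 0.051 and -0.0094 in their deviations (0, 24 and 48 h), so the numbers were not taken to pair the samples. With the replicate number as a block the calls were 8, 3 and 7 in WT cells, 8, 5 and 7 in KO cells, 1, 0 and 0 between the genotypes and 0 in each genotype by time test, and all 39 called changes kept their call. Summed over protein-coding transcripts alone, 23 of 60 group levels moved by more than 1 SD. With 2 libraries a group, a p that misses the threshold does not show that levels were equal, and *Fgf5* at 0 h rested on 6.05 to 24.5 counts a library.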

Other observations

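The estimated use of transcripts within a few genes, examined after the gene values were seen and not tested, differed between libraries. *Fgf5*-202, one of 2 protein-coding transcripts of *Fgf5* in the tables, was estimated at 0% of the gene's TPM in the 4 libraries at 0 h. At 24 h it took 24.0% and 0% in WT and 56.4% and 27.5% in KO libraries, the 56.4% being from replicate 1 of KO, the library that stood apart. At 48 h it took 10.6% and 14.2% in WT cells and 29.1% and 19.5% in KO cells, so both KO libraries were above both WT libraries.

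*Fgfr2* transcripts carry one of a pair of mutually exclusive exons for the third immunoglobulin-like domain, which set the range of ligands the receptor binds. The IIIb exon (148 bases, chromosome 7, 130199758 to 130199905, GRCm38) is in 10 transcripts of the tables and the IIIc exon (145 bases, 130198419 to 130198563) in 5. IIIc transcripts made up 95.0% and 78.8% of the TPM of both forms in WT cells at 24 h, and 87.2% and 62.8% at 48 h. In KO cells they made up 100% and 91.5% at 24 h, and 96.3% and 89.9% at 48 h, the 100% being from the library that stood apart. These shares leave out the transcripts with neither exon, which took 7.17% to 84.3% of the level at 24 h (84.3% and 57.8% in KO cells) and 32% to 56.85% at 48 h. At 0 h, where *Fgfr2* had 46.6 to 121 counts, 2 of the 4 libraries had no TPM in either form, IIIc took 82.4% of both forms in replicate 1 of WT and 0.000109% in replicate 1 of KO, and transcripts with neither exon took 41.9% to 100% of the level.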
